A study of Mus musculus with 14 samples.

Results

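Digestive enzymes of the kind that the exocrine pancreas makes were followed in liver RNA of Apoe-deficient mice. The set held 9 genes of the 17552 in the deposited gene table. They were found by their symbols, and each had 1 row. The set was separated into 6 genes whose known source is the pancreatic acinar cell (Ctrb1, Prss2, Try4, Cpa1, Pnlip and Amy2a5) and 3 that liver is known to make as well (Amy1, Cela1 and Cel). The 9 genes had been proposed because of their values in these same data, so their ratios are a description and no test was made on them.

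All mice were male, of the C57BL/6 strain and Apoe-deficient, so the controls lacked apolipoprotein E too. The controls ate a Western diet, and the erythrodiol group ate the same kind of diet with erythrodiol, a triterpene of the olive, at 10 mg/kg. By the sample labels the mice were 8 weeks old and spent 8 weeks on the diets. The paper states a longer feeding period. Each group comprised 7 libraries of polyadenylated liver RNA, each pooled from a few mice, and which mouse entered which pool is not given in the sources used here. No wild-type liver was analysed here, and Apoe itself had 9403 counts in the control and 8293 in the erythrodiol group.

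Acinar cells of the pancreas make digestive enzymes in bulk, many of them as inactive zymogens, and store them in granules until a meal. In the gut, enteropeptidase turns trypsinogen into trypsin, and trypsin then activates chymotrypsinogen, procarboxypeptidases and proelastases. Amylases and lipases are released in active form. Hepatocytes are not known for making trypsinogen or chymotrypsinogen, whereas Amy1, the amylase gene of the salivary gland, is also transcribed in mouse liver.

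The gene table gives 1 expected count per gene and group, the sum over the 7 libraries. The columns summed to 122889032 counts in the control and 124686047 in the erythrodiol group, within 0.00113% and 0.00326% of the read pairs that the libraries of each group mapped to genes. Control libraries contributed between 9.12% and 17.3% of their group's mapped pairs, and erythrodiol libraries between 13.9% and 14.6%. How the counts of a gene lay across the libraries is not known. A count of 42 may have come from 7 libraries or from 1, and no replicate error or p-value can be given for any gene from these sums. The paper also measured Ctrb1 and Amy2a5 in individual livers by RT-qPCR. There, Amy2a5 was significantly lower with erythrodiol. The sense primer for Amy2a5 lies in coding sequence that Amy2a2 shares, so that assay may not tell the copies apart. The mean of Ctrb1 was higher with erythrodiol, but its standard deviation exceeded the mean in both groups and the change was not significant. Ratios are erythrodiol over control after division by the column totals, and the 95% intervals are exact binomial ones on the counts. The median log2 ratio of the 13291 genes with at least 100 counts was 0.16, so that a ratio of 1 lay below that of most genes. The intervals cover counting error only and leave out differences between mice and pools. Even for counting error they may be too narrow, since reads amplified by PCR are not independent molecules. In bulk liver RNA, fewer cells of a type and less RNA per cell cannot be told apart. The hepatocyte markers Alb, Apoa1, Apob, Ttr and Cps1 together took 99530 and 99894 counts per 1000000 counts of the column (CPM) in control and erythrodiol, respectively.

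The acinar-only enzymes did not move one way. Ctrb1 and Cpa1 were higher with erythrodiol, Amy2a5 was lower, and Prss2, Try4 and Pnlip had intervals that include a ratio of 1. The enzymes shared with liver had a narrower range, with Amy1 and Cela1 lower and Cel thinly counted, with an interval that includes 1. At least 2-fold apart were 4 of the 9 genes, of which 3 were higher and 1 lower. Among all 15502 genes with at least 10 counts over both groups, 1.39% were at least 2-fold higher and 1.77% at least 2-fold lower. These shares were 8.41% and 9.09% among the 2211 genes that had from 10 to under 100 counts, the range that holds Ctrb1, Cpa1, Pnlip, Prss2 and Cel. When the median of genes with at least 100 counts was set to 0, 5 of the 9 genes were past 2-fold, 3 higher and 2 lower, against 1.03% and 2.5% of all genes. As the genes were chosen from this same contrast, nothing is read from these counts. Try4 fell short of 10 counts.

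**Figure D1:**
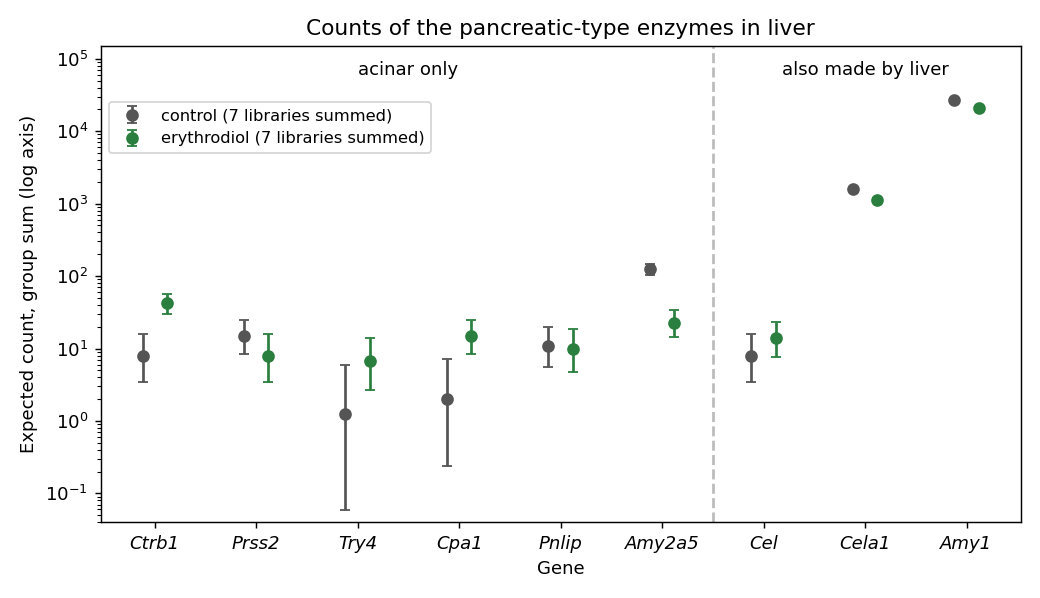
Expected counts of the 9 genes on a log axis, 1 point per group (sum of 7 libraries), with bars for the exact 95% Poisson interval. Grey and green points are separated for Ctrb1, Cpa1 and Amy2a5 among the acinar-only genes, while Amy1 and Cela1 stand far above the others and their bars are hidden by the points.

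Chymotrypsinogen B1, encoded by Ctrb1 (chr8:111686510-111691010, GRCm38), is the zymogen of an endopeptidase that cuts after large hydrophobic residues. It had 8 counts in the control and 42 in the erythrodiol group, and these Poisson intervals, 3.45 to 15.8 and 30.3 to 56.8, do not overlap. The scaled ratio was 5.17 (95% interval 2.40 to 12.8), the log2 ratio was 2.37, and the ratio ranked 20 from the top among the 15502 genes. Per length, its level went from 0.0734 to 0.380 CPM per kilobase. Even so it was a rare transcript, with a level above 19.2% of all genes with counts in the control and above 30.1% in the erythrodiol group.

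Carboxypeptidase A1, encoded by Cpa1 (chr6:30639218-30645361), removes hydrophobic residues from the C-terminal end of peptides. It had 2 counts in the control and 15 in the erythrodiol group. The ratio was 7.39, with an interval from 1.72 to 66.6, and it ranked 13 from the top. The low control count makes the size of this ratio uncertain, although its interval stays above 1.

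For each trypsinogen taken alone, the interval included a ratio of 1. Prss2 (chr6:41521776-41525079), the anionic trypsinogen, had 15 counts in the control and 8 in the erythrodiol group, with a ratio of 0.526 and an interval from 0.193 to 1.32. Try4 (chr6:41302272-41305533) had 1.25 and 6.74 counts, and its ratio of 5.31 had an interval from 0.773 to 130.2. Both intervals include 1. Try4 is a near copy of its neighbour Try5 (chr6:41311232-41314710), whose counts were 3.75 and 11.26. The fractions arise where the authors' counting divided reads between copies, and the pair added up to 5.00 and 18.00 counts. For the pair the ratio was 3.55 (1.27 to 12.2). With Prss2 and the trypsinogen-like 2210010C04Rik added, trypsinogen counts were 28.0 in the control and 31.0 in the erythrodiol group, a ratio of 1.09 (0.633 to 1.89).

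The coding sequences of Try4 and Try5 differ at 19 of 738 bases and share an unbroken run of 274 bases. Of the 100-base windows along the coding sequence of Try4, 33.2% occur unchanged in a transcript of another gene. The bases 1 to 90 of each coding sequence, counted from the start codon and with the bases that differ between the copies in capitals, show how little tells them apart (GENCODE M21 transcripts, build GRCm38).
Try4: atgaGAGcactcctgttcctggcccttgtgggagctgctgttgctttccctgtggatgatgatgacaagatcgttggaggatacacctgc
Try5: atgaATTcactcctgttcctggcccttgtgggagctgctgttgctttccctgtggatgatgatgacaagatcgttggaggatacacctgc

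Shares between pairs of these transcripts do not depend on how the columns were scaled, but they rest on the same counts by which Ctrb1 had been chosen and describe the same difference again. Ctrb1 took 8 of the 23 counts of Ctrb1 and Prss2 in the control, 34.8% with an exact binomial interval from 16.4% to 57.3%. In the erythrodiol group it took 42 of 50, 84.0% (70.9% to 92.8%). Against Pnlip, the share of Ctrb1 was 42.1% (20.3% to 66.5%) and 80.8% (67.5% to 90.4%), respectively. Against Ctrl, the chymotrypsin-like zymogen, it was 38.1% (18.1% to 61.6%) and 63.6% (50.9% to 75.1%). The intervals of the 2 groups are apart for Prss2 and Pnlip and overlap for Ctrl.

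**Figure D2:**
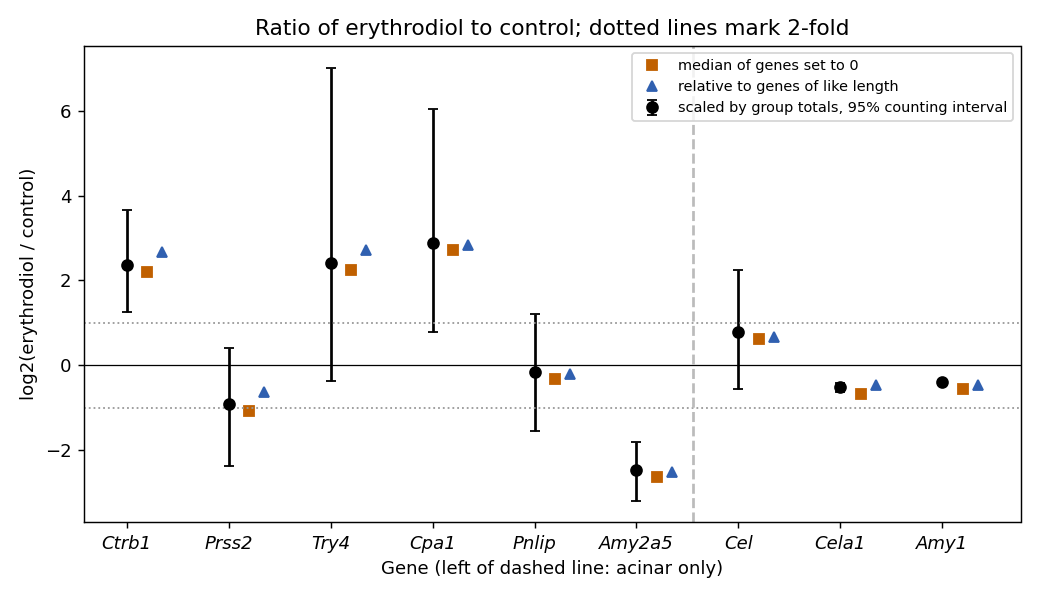
Log2 ratio of erythrodiol to control for the 9 genes: circles with 95% counting intervals are scaled by the group totals, squares by the median of well-counted genes and triangles by genes of like length. Only Ctrb1 and Cpa1 lie above 0 with their whole interval and only Amy2a5, Cela1 and Amy1 below, and the other scalings change no sign.

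The amylases lie in a cluster on chromosome 3. Amy2a5 (chr3:113249178-113258699) encodes pancreatic amylase, which splits starch into short sugars, and Amy1 (chr3:113555952-113577750) encodes the salivary and liver form. Amy2a5 had 123.84 counts in the control and 22.54 in the erythrodiol group. It was 5.57-fold lower, with a ratio of 0.179 and an interval from 0.109 to 0.283, and ranked 32 from the bottom among the 15502 genes. In the control it was the most abundant of the 6 acinar-only genes of the set, at 0.639 CPM per kilobase. In the erythrodiol group it stood at 0.115.

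The other copies of pancreatic amylase did not show a ratio of that size. Amy2a2, Amy2a3 and Amy2a4 each had 10.04 counts in the control and 8.45 in the erythrodiol group, with a ratio of 0.830 (0.291 to 2.30), and Amy2b had 0 and 1.04 counts, both under the 3 counts that a count of 0 allows. No row matched Amy2a1. The coding sequences of Amy2a5 and Amy2a2 are identical over all 1524 bases, and all 1425 of the 100-base windows in it occur in another gene's transcript. A read from the coding part therefore cannot be placed in 1 copy, and the deposited table gives Amy2a5 a length of 1577 bases but the 3 equal copies 3723 bases. Summed over the copies, pancreatic amylase had 153.96 counts in the control and 48.93 in the erythrodiol group, a ratio of 0.313 (0.222 to 0.435). Amy2a5 held 80.4% of that sum in the control and 46.1% in the erythrodiol group. The family sum was lower too, but it largely repeats the value of Amy2a5 and is no separate support. The other copies together had 30.12 counts in the control and 26.39 in the erythrodiol group. The size of the difference for Amy2a5 alone depends on how reads were divided.

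Amy1 had 27196 counts in the control and 20872 in the erythrodiol group, a ratio of 0.756 (0.743 to 0.770). It was by far the most abundant of the 9, at 123.3 and 93.3 CPM per kilobase, above 96.7% and 95.8% of all genes with counts. The coding sequences of Amy1 and Amy2a5 are 89.9% identical, with 154 differing bases among 1524 aligned, and their longest shared run is 73 bases. No 100-base window of Amy1 occurs in another gene's transcript, and its counts were whole numbers in both groups. Pancreatic amylase counts came to 0.566% of those of Amy1 in the control and 0.234% in the erythrodiol group. These shares largely repeat the value of Amy2a5, and their spread between libraries is not known. The bases 1 to 90 of the coding sequences, with the 11 that differ in capitals, show the spacing of the bases by which their reads are separated.
Amy1: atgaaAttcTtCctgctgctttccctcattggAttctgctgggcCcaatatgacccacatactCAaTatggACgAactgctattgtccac
Amy2a5: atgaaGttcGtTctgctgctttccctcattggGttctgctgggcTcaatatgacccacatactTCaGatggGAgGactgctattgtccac

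**Figure D3:**
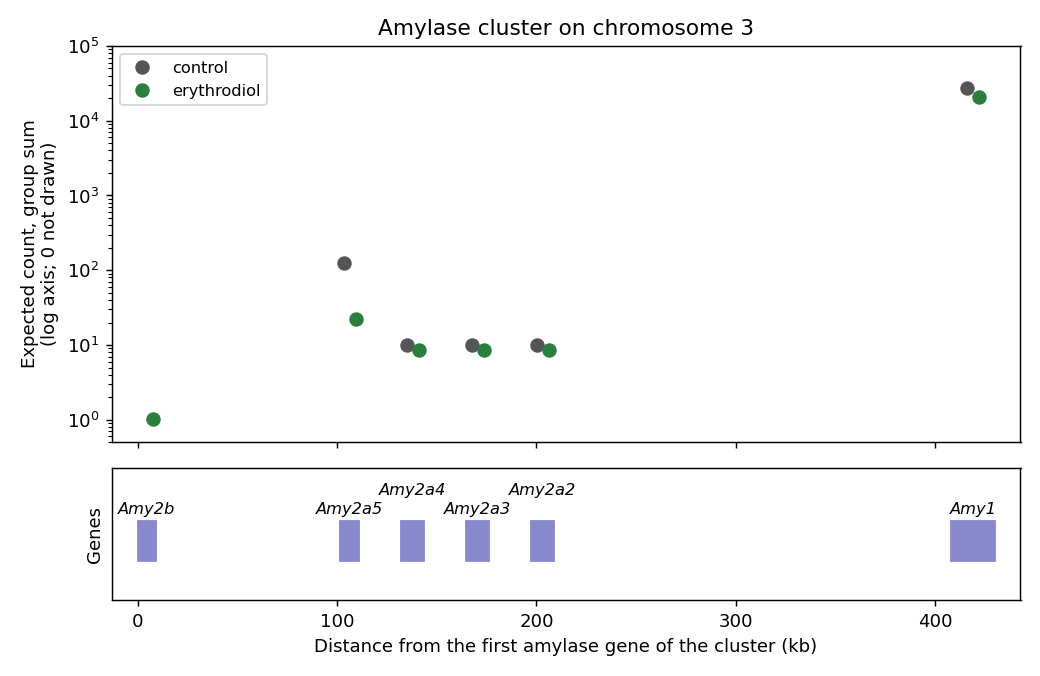
Expected counts of the amylase genes with a row in the table (upper panel, log axis, group sums of 7 libraries) at their distance from the start of Amy2b in kilobases (lower panel, gene bodies as boxes). Amy1, at the far end, has 27196 and 20872 counts, Amy2a5 has 123.84 and 22.54, and the 3 equal copies have 10.04 and 8.45 each.

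Of the lipases, Pnlip (chr19:58670365-58681799) encodes pancreatic triglyceride lipase, which needs colipase to work on bile-coated fat. It had 11 counts in the control and 10 in the erythrodiol group, with a ratio of 0.896 (0.341 to 2.32). Cel (chr2:28555819-28563403) encodes carboxyl ester lipase, which cleaves cholesteryl esters and is activated by bile salts. It had 8 and 14 counts, a ratio of 1.73 (0.675 to 4.75). Both intervals include 1, and the pooled sums allow no test of a difference for either gene. Although Cel had been placed with the liver-made enzymes, its level of 0.0313 and 0.0540 CPM per kilobase lay in the range of the acinar-only genes, and its Poisson interval overlapped those of its neighbours in the order of levels in both groups.

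Elastase 1, encoded by Cela1 (chr15:100674422-100687920), degrades elastin and is also made outside the pancreas. It had 1574 counts in the control and 1113 in the erythrodiol group, a ratio of 0.697 (0.645 to 0.753). It was the second most abundant of the 9 genes, at 11.4 and 7.94 CPM per kilobase. Cela1 was also the one gene of the set for which the authors' assembly, made from all libraries, holds coding transcripts beyond the reference annotation. There were 5 of them on the minus strand, each with 3 or 4 exons and between 601 and 976 bases long, and all of their introns are present in the GENCODE annotation of Cela1. They reach at most to base 100683148, short of the annotated start of the gene at base 100687920. Inside Amy2a3 the assembly places 2 further transcripts of 4 and 3 exons, with all introns known, which it did not assign to the gene. It also holds 1 transcript assigned to Cela2a, with 5 of its 6 introns in the annotation, and 1 assigned to Klk1, with 3 of 4. The deposited files used here give no abundance for these transcripts.

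Summed, the 6 acinar-only genes had 161.09 counts in the control and 104.28 in the erythrodiol group, which is 1.31 and 0.836 CPM. The ratio of the sums was 0.638 (0.494 to 0.821). That value rested on Amy2a5, which made up 76.9% of the control sum but 21.6% of the erythrodiol sum. Without Amy2a5, the other 5 genes had 37.25 and 81.74 counts, and the ratio turned to 2.16 (1.45 to 3.28). Ctrb1 in turn provided 40.3% of the erythrodiol sum and 4.97% of the control sum. With both left out, the remaining 4 genes had 29.25 and 39.74 counts, a ratio of 1.34 (0.810 to 2.24). The liver-made genes summed to 28778 and 21999 counts, a ratio of 0.753 (0.740 to 0.767), and without Amy1 to 1582 and 1127, a ratio of 0.702 (0.650 to 0.758).

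**Figure D4:**
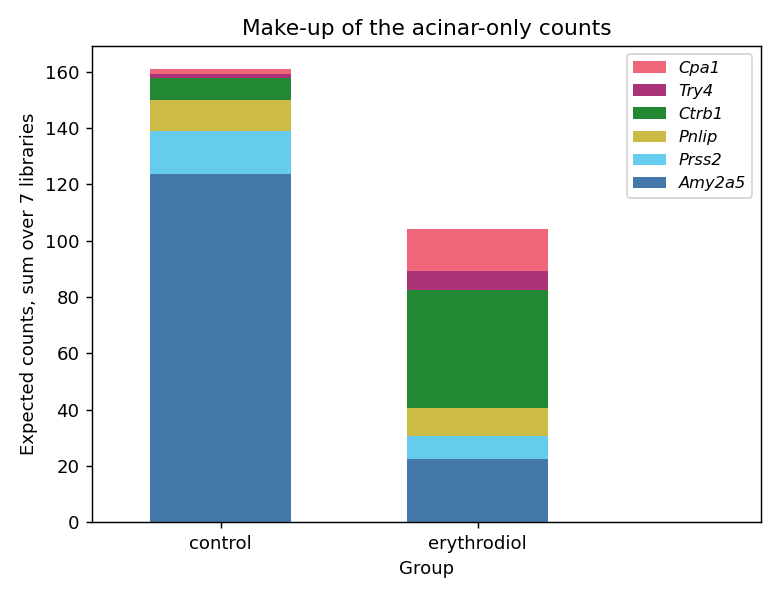
Stacked expected counts of the 6 acinar-only genes in each group, as sums over 7 libraries. Amy2a5 fills most of the control bar (123.84 of 161.09), whereas Ctrb1 is the largest piece of the erythrodiol bar (42 of 104.28).

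In order of level per length, the control group ran Amy1, Cela1, Amy2a5, Prss2, Ctrb1, Pnlip, Cel, Try4 and Cpa1. The Poisson intervals of neighbours were separate down to Prss2, and from Prss2 on each overlapped the next. In the erythrodiol group Ctrb1 came next after Amy1 and Cela1, with an interval apart from that of Amy2a5 in the next place, followed by Prss2, Cpa1, Try4, Cel and Pnlip. The intervals from Amy2a5 downward overlapped those of their neighbours, and these genes lay between 0.0529 and 0.115 CPM per kilobase.

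The stretches before the annotated starts of the genes at either end are shown because Ctrb1 and Cpa1 were higher while the amylases were lower. Acinar genes are known to be driven by the PTF1 complex, in which PTF1A and an E protein bind an E-box (CANNTG) and RBPJL or RBPJ binds a nearby box with the letters TGGGAA. Each sequence holds the 250 bases upstream of a RefSeq start on GRCm38.p6, read 5′ to 3′ on the strand of the gene, with both motifs, found on either strand, in capitals. No 2 matches overlap in the sequences printed. Ctrb1 lies at chr8:111691011-111691260 (minus strand), Cpa1 at chr6:30638968-30639217 (plus strand) and Amy2a5 at chr3:113258700-113258949 (minus strand). Amy1 has 2 annotated starts, an outer one at chr3:113577751-113578000 and an inner one at chr3:113574763-113575012 (both minus strand), and the gene table does not separate them.
Ctrb1: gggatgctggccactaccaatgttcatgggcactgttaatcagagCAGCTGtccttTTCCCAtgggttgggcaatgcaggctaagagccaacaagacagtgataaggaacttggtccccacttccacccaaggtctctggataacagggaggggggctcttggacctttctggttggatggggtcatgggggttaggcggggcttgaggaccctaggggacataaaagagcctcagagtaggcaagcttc
Cpa1: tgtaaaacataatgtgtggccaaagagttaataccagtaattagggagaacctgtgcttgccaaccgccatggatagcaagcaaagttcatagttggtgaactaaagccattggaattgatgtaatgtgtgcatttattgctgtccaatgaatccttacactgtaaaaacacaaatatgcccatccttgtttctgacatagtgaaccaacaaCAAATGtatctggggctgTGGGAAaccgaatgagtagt
Amy2a5: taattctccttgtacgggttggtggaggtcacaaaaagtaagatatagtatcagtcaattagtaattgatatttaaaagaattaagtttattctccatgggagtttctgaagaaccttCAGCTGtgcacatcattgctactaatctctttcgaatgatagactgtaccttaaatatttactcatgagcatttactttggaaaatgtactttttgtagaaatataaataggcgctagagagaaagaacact
Amy1, outer start: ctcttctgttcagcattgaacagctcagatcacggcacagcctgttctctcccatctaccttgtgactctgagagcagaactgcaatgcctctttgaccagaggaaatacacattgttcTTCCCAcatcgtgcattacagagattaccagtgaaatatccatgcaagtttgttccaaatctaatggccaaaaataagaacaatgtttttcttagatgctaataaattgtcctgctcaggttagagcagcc
Amy1, inner start: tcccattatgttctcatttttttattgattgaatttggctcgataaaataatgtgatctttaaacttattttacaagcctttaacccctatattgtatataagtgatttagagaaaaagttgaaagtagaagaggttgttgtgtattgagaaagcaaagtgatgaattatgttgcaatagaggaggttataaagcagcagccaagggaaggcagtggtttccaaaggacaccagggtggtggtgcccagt

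In Ctrb1 an E-box is followed after 5 bases by the second motif, and in Cpa1 the motifs stand 12 bases apart. Cel also holds both, 16 bases apart, and Prss2 38 bases apart. Amy2a5 has an E-box without the second motif, the outer start of Amy1 has the second motif without an E-box, and the inner start has neither. Try4, with a ratio of 5.31, and Cela1 also have E-boxes without the second motif, and Pnlip has the second motif without an E-box. Among all 32851 RefSeq promoter windows of this length, 66.2% hold an E-box, 21.6% the letters TGGGAA and 4.29% both with at most 20 bases between them, a limit set after the sequences had been seen. Of the 10 windows of the 9 genes, 7 hold an E-box and 6 hold TGGGAA. The letters TATAAA, found in 12.4% of all windows on either strand, are present in 6 of the 10. These are matches of letters and not sites of binding, and their part in the ratios was not tested.

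Other genes of the acinar cell also lay on both sides of a ratio of 1. Of 26 further pancreatic zymogens and enzymes, 15 had counts, and 11 matched no row, Ctrc, Prss1, Pla2g1b and Pnliprp2 among them. Of the 12 with at least 10 counts, 2 were at least 2-fold higher and 2 at least 2-fold lower. Among all genes of 10 to under 100 counts, the range of these 4, the shares were 8.41% and 9.09%. The median log2 ratio of the 12 was -0.27, against 0.15 over all genes with at least 10 counts. Cela3b, a pancreatic elastase, had 3 counts in the control and 11 in the erythrodiol group (ratio 3.61, 0.955 to 20.2), and Try5 was the other gene past 2-fold upward. Cpb1, a carboxypeptidase B that removes basic residues, had 11 and 3 counts (ratio 0.269, 0.0482 to 1.02). Pnliprp1, a relative of pancreatic lipase, had 21 and 10 counts (ratio 0.469, 0.197 to 1.04). The intervals of these 4 genes include 1. Cela3b and Try5 reached 10 counts only through the erythrodiol group and Cpb1 only through the control, so nothing is read from their directions.

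The most counted of these further enzymes lay near a ratio of 1. Cela2a, another pancreatic elastase, had 104 and 96 counts (ratio 0.910, 0.682 to 1.21), Dnase1 had 71 and 81 (1.12, 0.807 to 1.57), and the kallikrein Klk1 had 51 and 36 (0.696, 0.441 to 1.09). Ctrl, the chymotrypsin-like zymogen, had 13 and 24 counts, with a ratio of 1.82 (0.890 to 3.89). Without the amylases, the 11 remaining genes with counts summed to 293.75 and 287.26, a ratio of 0.964 (0.816 to 1.14). Pnlip, Pnliprp1 and the colipase gene Clps together had 36.0 and 25.0 counts (0.684, 0.394 to 1.17).

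**Figure D5:**
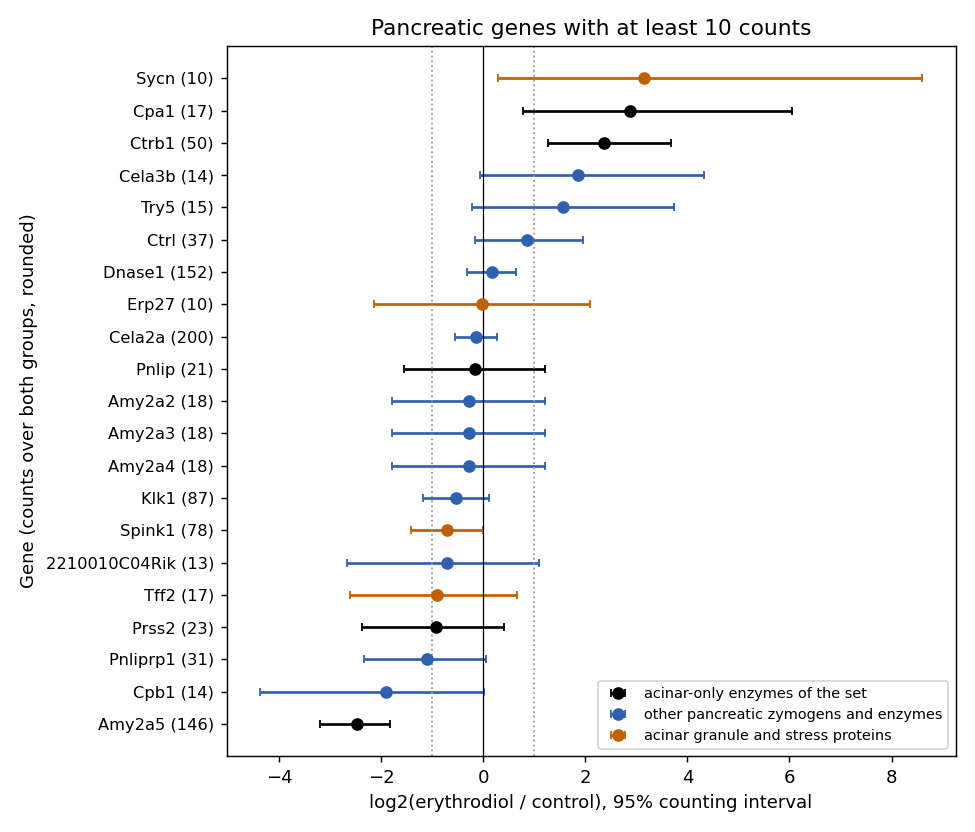
Log2 ratio of erythrodiol to control with 95% counting intervals for the acinar genes with at least 10 counts over both groups, with those counts in brackets. Ctrb1, Cpa1 and Sycn lie wholly above 0, Amy2a5 and Spink1 wholly below it, and the intervals of the others include 0. Cpa1 and Sycn could reach 10 counts only by being higher with erythrodiol.

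Among 17 proteins of the acinar granule or of acinar stress, 11 had counts and 4 reached 10. Sycn, a zymogen granule protein, had 1 count in the control and 9 in the erythrodiol group (ratio 8.87, 1.23 to 388.8). With 1 control count it could reach the limit of 10 only by being higher with erythrodiol, so nothing is read from its direction. Spink1, the trypsin inhibitor, had 48 and 30 counts (0.616, 0.377 to 0.992). Tff2, a trefoil peptide, had 11 and 6, and the disulfide isomerase relative Erp27 had 5 in both groups. Of these 4, 1 was at least 2-fold higher and 0 were at least 2-fold lower. The shares among all genes of 10 to under 100 counts were 8.41% and 9.09%. Tff2 reached a log2 ratio of -1.06 once the median of well-counted genes was set to 0.

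Neither Ptf1a nor Rbpjl, the defining transcription factors of acinar cells, matched a row. Another 5 factors, which act in acinar cells but are not particular to them, had counts. All 5 lay above 0 in log2 ratio and within 2-fold, as did most genes. Of all genes with at least 10 counts, 68.1% lay above 0 and 96.8% within 2-fold. Bhlha15 (MIST1), which shapes secretory cells, had 112 counts in the control and 164 in the erythrodiol group (ratio 1.44, 1.13 to 1.85). Xbp1 had 26701 and 30420 counts, Nr5a2 had 6241 and 8247, Gata4 had 2110 and 2734, and Gata6 had 1019 and 1137. Gata6 turned from 0.14 to -0.02 in log2 ratio when the median of well-counted genes was set to 0, and the other 4 kept their sign.

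Markers of islet, acinar, duct and gut cells were examined beside the enzymes. Of 12 islet markers, 4 had counts, between 0 and 5 in either group, and Ins1, Ins2, Gcg and Iapp matched no row. Sst had 0 counts in the control and 1 in the erythrodiol group. Of the 12 acinar markers, 10 had counts, with sums of 274 in the control and 359 in the erythrodiol group (ratio 1.29, 1.10 to 1.52), most of them from Bhlha15 and Cela2a. That list holds Ctrb1 and Cpa1 and lacks Amy2a5. Without Bhlha15, the most counted gene of that list, the sums were 162 and 195 (1.19, 0.958 to 1.47). With Amy2a5 added to the full list they were 397.84 and 381.54 (0.945, 0.819 to 1.09). Both changes to the list were made outside the plan. The 7 duct markers reported here had counts and all were within 2-fold and below a ratio of 1, against 31.9% of all genes with at least 10 counts below 1 and 96.8% within 2-fold. Spp1 had 12503 and 8363 counts (ratio 0.659), Sox9 999 and 953 (0.940), Epcam 353 and 244 (0.681) and Krt19 280 and 153.45 (0.540). With the median of well-counted genes set to 0, Krt19 and Cftr were past 2-fold, at log2 ratios of -1.05 and -1.03. The duct markers do not separate ducts of the pancreas from bile ducts of the liver. The part of duct or islet RNA in the results for the enzymes was not tested.

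Of 14 gut and stomach digestive genes, 6 reached 10 counts and none of the 6 was past 2-fold. Among all genes with at least 10 counts, 96.8% were within 2-fold. Anpep, Dpp4 and Enpep, peptidases of the brush border that liver also makes, had ratios of 1.35, 1.05 and 1.13, and Fabp2, an enterocyte fatty acid carrier, had 12791 and 7834 counts (ratio 0.604). Vil1, a brush border protein, had 43 and 31 counts, and Mep1b, a meprin subunit, had 37 and 25. The 5 genes with counts that stayed under 10, Lct, Sis, Alpi, Pgc and Mep1a, had between 0 and 3 in either group.

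Proteases of blood cells and of liver were set beside the pancreatic ones. Prtn3, proteinase 3 of neutrophil granules, had 367 counts in the control and 41 in the erythrodiol group (ratio 0.110, 0.0777 to 0.152). Elane, the neutrophil elastase, had 24 and 14, and the mast cell proteases Mcpt4 and Cma1 had 9 and 8, and 6 and 6, respectively. Cpa3, the mast cell carboxypeptidase, had 3 and 7 counts (2.30, 0.525 to 13.8). The neutrophil markers together had 394 and 56 counts and the mast cell markers 24 and 25, and their part in the results for the enzymes was not tested. Of the 6 genes of this list with at least 10 counts, 1 was at least 2-fold higher and 1 lower. The higher one, Cpa3, reached 10 counts only through the erythrodiol group, so nothing is read from its direction. The shares among all genes with at least 10 counts were 1.39% and 1.77%, and 8.41% and 9.09% among those of 10 to under 100. All 18 liver lipases, carboxypeptidases and serine proteases were within 2-fold, as were 96.8% of all genes with at least 10 counts. Their median log2 ratio was 0.11, or -0.05 with the median of well-counted genes set to 0. Plg, F2, Cpb2 and Tmprss6 had ratios of 1.08, 1.06, 0.750 and 1.06. All 8 hepatocyte markers were within 2-fold as well, with a median of 0.18, and Alb, Trf, Apoa1 and Apob had ratios of 0.962, 1.13, 1.10 and 1.28.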

How the data were processed

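Liver RNA of 14 libraries, 7 per group, was read from both ends of each fragment on a BGISEQ-500 instrument, and groups were taken from the sample labels. Per the submitters' notes and the paper, HISAT and StringTie served mapping and assembly, Cufflinks the comparison with the annotation, and Bowtie2 and RSEM the counts. Versions are not given in the sources used here. The authors deposited expected counts per gene, summed over each group's libraries and not normalized, and counts of clean reads (control, 34856340 to 55244294; erythrodiol, 47669656 to 48058606) in each library. The authors also deposited the percent of clean reads that mapped to genes (64.3 to 81.4 and 73.0 to 76.1). Libraries were prepared without a stated strand. The authors' log2 ratio, p-value, q-value and call columns were not used.

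Estimated counts entered the intervals unrounded. Of 17497 genes with counts, 80.7% were whole in both groups within 0.005, as were 7 of the 9 genes described. The design had foreseen values per library, but gene values are pooled, so no test was made. Genes named are the 9, Apoe, and from 9 other lists the 4 most counted and those past 2-fold with at least 10 counts. Other genes that the text names (among them 2210010C04Rik, Clps, the Amy2 copies, Bhlha15, Ttr, Cps1 and genes unmatched or near 0) fall outside this rule and were added after values were seen. The members and lists were chosen with earlier results of these data known. Some list genes are not reported here. Lists matched on symbol or RefSeq synonym. For a group at 0, 0.5 counts were used. Shared windows, coding sequences and introns came from GENCODE M21. Alternatives were the median of genes with at least 100 counts set to 0, genes of like length (20 classes), a pseudocount of 1, the median of the genes, sets without single genes and a minimum of 10 counts. Scripts ran in Python 3.11.15 with scipy 1.17.1, numpy 2.4.6, pandas 2.3.3 and, for plots, matplotlib 3.10.9, and were tested on simulated data.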

Additional observations from a re-analysis of the deposited data

Results flagged for a closer look

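Control replicate 3 mapped 64.3% of its clean reads to genes, the lowest share of the 7 control libraries, and its gap to the next library was 0.588 of the range of the group. Chance flags about 1 in 20 groups per measure in this way. Clean reads and mapped shares were both checked in each group, so a flag by chance was likelier than that. That library provided 9.12% of the mapped pairs of the control group, and its counts of the digestive enzymes cannot be separated from the group sums, so the values without it are not known.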

How the results depend on the processing

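With the median log2 ratio of the 13291 genes of at least 100 counts set to 0, every log2 ratio fell by 0.16. The summed acinar-only genes had a log2 ratio of -0.65, which stayed negative under the other scalings, the pseudocount of 1 and the sum of all pancreatic amylase genes in place of Amy2a5. It reversed to 1.11 without Amy2a5 and to 1.11 as the median of the 6 genes, and without Ctrb1 it moved to -1.32. The liver-made genes had -0.41, which moved to -0.57 with the median set to 0, to -0.47 relative to genes of like length and to -0.51 without Amy1. The replacement of Amy2a5 by the family and the values without Ctrb1 or Amy1 were chosen after seeing the data. Genes past 2-fold numbered 4, 5 with the median set to 0 (Prss2 joined at -1.09), and 3 with at least 10 counts required (Try4 dropped out). No log2 ratio of the 9 genes changed sign. No paired analysis was possible because the gene values are pooled per group and come from no test, and for the same reason no library could be left out. Depth limits Try4, Cpa1, Pnlip, Prss2 and Cel most, each with 23 counts or fewer over both groups.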
